A study of Mus musculus with 5 samples.

Results

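The expression of 10 genes that mark primitive or definitive endoderm was described in 5 mouse embryonic stem cell (ESC) lines. The genes were Gata4, Gata6, Sox17, Sox7, Foxa2, Dab2, Afp, Ttr, Hnf4a and Pdgfra. They are 10 of the 27962 gene names on the array and were found by name: each of the 21 non-control probes whose gene name in the array files is one of these was taken, of 41174 probes in all. Of the 21 probes, 12 passed the filter on dim probes, and these belonged to 9 of the 10 genes. The other 9 probes, among them the single probe of Ttr, were well above background in no line. The filter kept 28972 probes of the whole array. The brightest probes of Pdgfra, Sox7, Sox17 and Gata6 were higher in both lines numbered #620 than in the other 3, but the second Pdgfra probe disagreed. Afp was detected in the #620 lines only, and dim genes were harder to detect in some of the other lines. The deposited values gave Afp another order over the lines. None of the 9 genes tested was called between genotypes, and Ttr was not tested.

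Primitive endoderm is the layer that forms beside the epiblast in the blastocyst and gives rise to the visceral and parietal endoderm of the yolk sac. Definitive endoderm forms later, at gastrulation, and gives rise to the gut, liver and pancreas. Gata6, Gata4, Sox17 and Sox7 are transcription factors of primitive endoderm, and Sox17 also acts in definitive endoderm. Pdgfra is a cell surface receptor used to recognise primitive endoderm, and it is also found on mesenchyme. Undifferentiated ESCs correspond to the epiblast, and cultures can hold small numbers of cells that turn on these genes.

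The wild-type lines were RF8, labelled male and of 129sv origin, and #620-2, labelled female and of C57BL6/129sv origin. The lines with both copies of ECAT11 disrupted, ECAT11EGFP/EGFP, were #620-6 (labelled female), #757-1 and #757-2 (both labelled male), all of C57BL6/129sv origin. In the targeted allele a cassette of EGFP, an internal ribosome entry site and a puromycin resistance gene stands in place of the coding region. RF8 is the parental line, and the others came from blastocysts of crosses between carriers of the allele, grown on SNL feeder cells at derivation. All 5 were cultured with serum and leukemia inhibitory factor (LIF) on gelatin without feeders for the arrays. Each line is 1 clone measured on 1 one-colour array, so the lines are the replicates, no line has a spread of its own, and the number of arrays limits the precision. RF8, #620-2 and #620-6 lay on the first slide, and #757-1 and #757-2 on the second. The label female coincides with the number #620, so that sex and the origin of the lines cannot be told apart.

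Values below are log2 of the background-corrected intensity relative to the 75th percentile of the same array, and they compare lines for 1 probe, never 1 probe with another. A probe was called well above background in a line where over 0.5 of its unmarked spots carried that flag. Between 26362 and 27134 probes reached it on the first slide, against 22044 and 21242 on the second. The lowest value well above background lay between -6.23 and -5.91 on the first slide, but was -4.50 in #757-1 and -4.23 in #757-2, so dim genes were harder to detect in the #757 lines. The label of ESCs was checked on 19 pluripotency genes, which were all well above background in all 5 lines. Pou5f1 lay between 2.54 and 3.05, Sox2 between 4.13 and 4.66 and Nanog between 2.53 and 4.53. The array has no probe named ECAT11, and its transcript is not analysed here.

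Probe and promoter sequences show what the values rest on. Agilent probes are single strands of 60 bases, and positions are those of the files, on mouse build mm7. The annotation of that build was not used here, so the exon or untranslated region in which a probe lies is not given. Pdgfra has 2 probes that gave different patterns over the lines, one at chr5:74616116-74616175 and one at chr5:74581841-74581900, both on the plus strand. Sox17 has 4, of which 2 on the minus strand, at chr1:4487014-4487073 and chr1:4487401-4487460, were detected and gave like patterns. Dab2 has a probe whose position, chr15:6251189-6251632 on the plus strand, runs over 444 bases of genome for its 60 bases, and which was well above background in no line. One probe of each gene is printed, 5′ to 3′:
Pdgfra, chr5:74581841-74581900: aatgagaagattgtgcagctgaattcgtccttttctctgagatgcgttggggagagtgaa
Sox17, chr1:4487401-4487460: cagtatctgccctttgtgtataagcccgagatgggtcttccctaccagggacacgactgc
Dab2, chr15:6251189-6251632: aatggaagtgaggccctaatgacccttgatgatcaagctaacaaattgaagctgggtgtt

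Promoters were taken from RefSeq's table on build GRCm38.p6 for the 5 genes found in it, Foxa2, Dab2, Afp, Hnf4a and Pdgfra, which have 9 promoters in all. Gata4, Gata6, Sox17, Sox7 and Ttr were not matched. The 250 bases before each start were searched on both strands for AGATAA, a sequence that GATA factors can bind, and AACAAT, one that SOX factors can bind. Neither motif holds the other. AGATAA was found in 2 of the 9, 1 of Foxa2 and 1 of Hnf4a, against 9.99% of all 32851 promoters in the table, and AACAAT in 0, against 9.42%. The windows of Pdgfra and Afp are shown because these genes were higher or detected only in the #620 lines, and 1 of Hnf4a because it holds AGATAA, in capitals. G and C made up 36.0% of the Afp window and 54.4% of that of Pdgfra, against a median of 52.4% over all promoters. No match says only that these letters are not in this window.
Pdgfra, plus strand, chr5:75152001-75152250: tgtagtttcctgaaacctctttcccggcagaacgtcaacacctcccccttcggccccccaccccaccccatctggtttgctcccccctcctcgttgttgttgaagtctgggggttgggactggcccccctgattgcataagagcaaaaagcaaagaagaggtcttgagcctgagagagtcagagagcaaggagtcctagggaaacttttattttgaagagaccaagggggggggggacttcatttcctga
Afp, plus strand, chr5:90490464-90490713: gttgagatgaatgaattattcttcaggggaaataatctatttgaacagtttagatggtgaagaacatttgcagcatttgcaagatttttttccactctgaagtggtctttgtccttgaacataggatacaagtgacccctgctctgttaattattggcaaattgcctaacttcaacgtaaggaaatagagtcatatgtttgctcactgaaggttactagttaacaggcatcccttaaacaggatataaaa
Hnf4a, plus strand, chr2:163506607-163506856: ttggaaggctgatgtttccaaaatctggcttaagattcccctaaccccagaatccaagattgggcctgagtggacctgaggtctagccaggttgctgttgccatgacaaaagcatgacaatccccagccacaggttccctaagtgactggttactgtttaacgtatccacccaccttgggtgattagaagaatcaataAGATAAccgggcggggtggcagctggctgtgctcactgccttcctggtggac

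Among the transcription factors of primitive endoderm, Gata6 was detected in every line. Its brightest probe, at chr18:11291591-11291649, read -3.07 in RF8, -1.35 in #620-2, -2.30 in #620-6, -3.51 in #757-1 and -3.69 in #757-2. Both #620 lines lay above the other 3, and the wild-type #620-2 was the highest. Its other 2 probes were well above background in no line. Gata4, the close relative of Gata6, gave a different picture: its brightest probe, of which the files place 22 bases at chr14:58062775-58062796, read -5.12 in RF8, -5.25 in #620-2, -5.28 in #620-6, -5.52 in #757-1 and -5.91 in #757-2. It was well above background in the 3 lines of the first slide and not in those of the second, and the first 3 lines differed by little. The second Gata4 probe was well above background in no line.

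Sox17 and Sox7 belong to the same subgroup of SOX factors. The brightest probe of Sox17, at chr1:4487014-4487073, read -4.99 in RF8, -2.64 in #620-2, -3.00 in #620-6, -4.95 in #757-1 and -4.93 in #757-2. Both #620 lines stood apart from the others, and the #757 values were not well above background. Its probe printed above gave -4.75, -2.86, -3.19, -5.07 and -5.10 in the same order, and the other 2 were detected in no line. Sox7 varied most among the member genes that were well above background in all 5 lines, with -5.35 in RF8, -1.83 in #620-2, -1.12 in #620-6, -3.24 in #757-1 and -2.78 in #757-2 at chr14:58814461-58814520. RF8 was the lowest and the #620 lines the highest, with the #757 lines between. The second Sox7 probe, at chr14:58808238-58808297, was well above background in the #620 lines only, at -5.07 and -4.56.

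The brightest probe of Pdgfra read -6.49 in RF8, -1.99 in #620-2, -1.95 in #620-6, -6.53 in #757-1 and -6.40 in #757-2. It was well above background in both #620 lines, where all 10 of its spots carried the flag, and in no other line, where 0 of 10 did. The 2 #620 lines, of different genotypes, differed by 0.04. On the same slide the signal was at least 16.1-fold higher in #620-2 and at least 16.5-fold higher in #620-6 than in RF8. These bounds set each line's value against the higher of RF8's own value and the lowest signal well above background on its array. The second Pdgfra probe disagreed: it read -8.24 in RF8, -3.10 in #620-2, -6.65 in #620-6, -6.73 in #757-1 and -4.36 in #757-2, and was well above background in #620-2 only. The pattern of the Pdgfra gene therefore rests on 1 of its 2 probes.

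**Figure D1:**
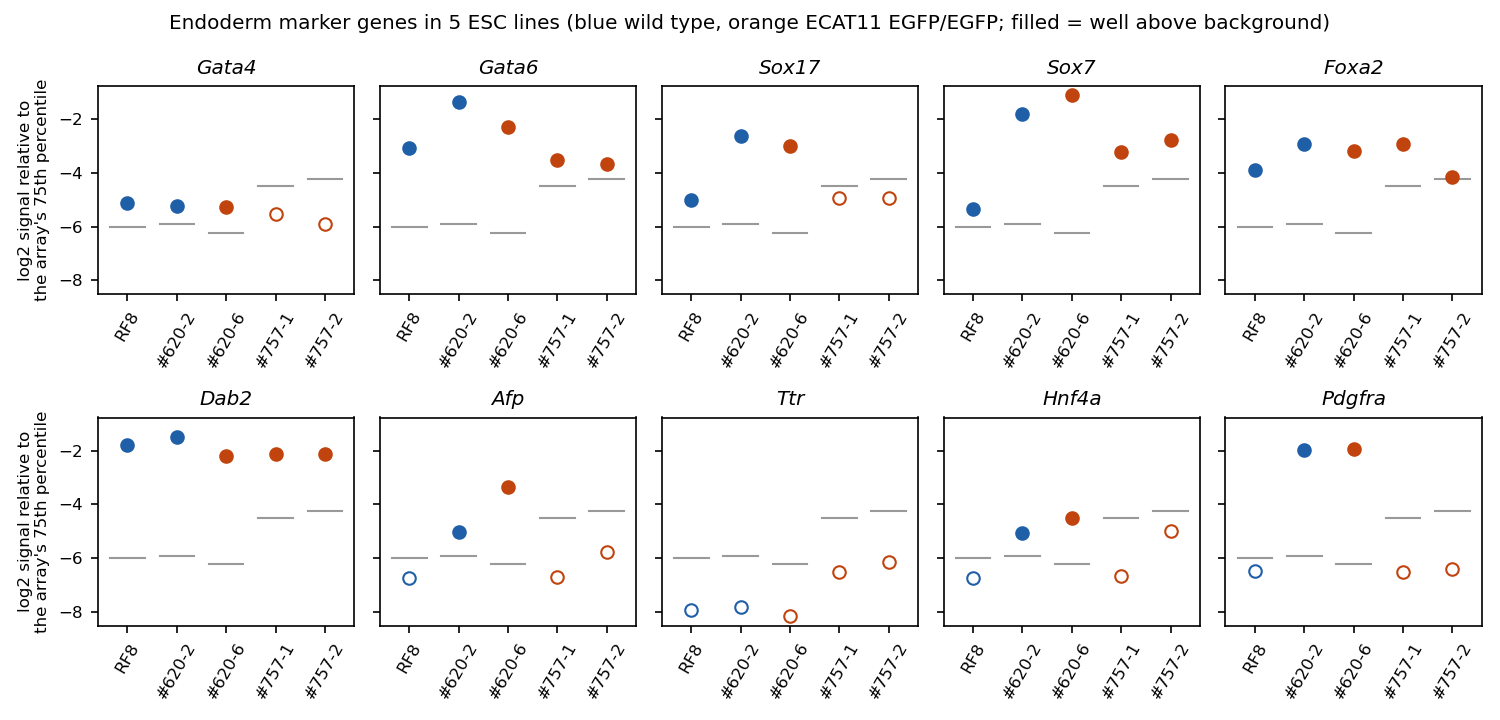
The brightest probe of each of the 10 genes in the 5 ESC lines, as log2 signal relative to the 75th percentile of the array, with wild-type lines in blue and ECAT11EGFP/EGFP lines in orange. Filled points were well above background, and grey bars mark the lowest value well above background on that array. Pdgfra is filled only in the 2 #620 lines, at -1.99 and -1.95, and Ttr is open in all 5.

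Foxa2, a forkhead factor of definitive endoderm and its derivatives, was detected in all 5 lines without a split between the #620 lines and the rest. It read -3.91 in RF8, -2.93 in #620-2, -3.19 in #620-6, -2.94 in #757-1 and -4.14 in #757-2 at chr2:147783819-147783878. The 2 #757 lines lay 1.20 apart, nearly the whole range of the gene. Hnf4a, a nuclear receptor of visceral endoderm and liver, read -6.74 in RF8, -5.08 in #620-2, -4.49 in #620-6, -6.67 in #757-1 and -4.98 in #757-2 at chr2:163313228-163313287. It was well above background in the #620 lines only, and the #757-2 value, below the limit of detection there, lay between theirs. Its other 2 probes were detected in no line.

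Dab2, an adaptor protein of endocytosis in the visceral endoderm, varied least among the genes detected everywhere, with -1.80 in RF8, -1.49 in #620-2, -2.19 in #620-6, -2.14 in #757-1 and -2.14 in #757-2 at chr15:6266416-6266475. Both wild-type lines lay above the 3 ECAT11EGFP/EGFP lines.

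The serum proteins made by visceral endoderm and fetal liver were detected in few lines or in none. Afp, alpha-fetoprotein, read -6.75 in RF8, -5.04 in #620-2, -3.36 in #620-6, -6.69 in #757-1 and -5.79 in #757-2 at chr5:90479870-90479929. It was well above background in the #620 lines only, and was 1.69 higher in #620-6 than in #620-2. Over RF8, Afp was raised at least 1.94-fold in #620-2 and at least 6.24-fold in #620-6. The #757 lines give it no order against #620-2, whose value lay below their limits of detection. In the deposited log2 table Afp was 2.30 higher in #757-1 than in #620-2 and 1.81 higher in #620-6. Of the Afp spots of #757-1, 2 of 10 were marked non-uniform or population outlier and left out here, at -5.73 and -2.73, and 2 of 10 in #620-6, at -3.44 and -1.95. Ttr, transthyretin, which carries thyroid hormone and retinol-binding protein, read -7.93, -7.83, -8.16, -6.50 and -6.15 in the same order at chr18:21044829-21044889. None of these was well above background, so Ttr has no order over the lines, and it was not tested.

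The brightest probes of Pdgfra, Afp and Foxa2 were printed in 10 spots per array, which shows the technical spread within an array. The SD over the Pdgfra spots was 0.056 in #620-2 and 0.050 in #620-6, and 0.45 in RF8, where the probe was at background. Every Pdgfra spot of the #620 lines, from -2.08 to -1.88, lay above every spot of the other lines, the highest of which was -5.93. The unmarked Afp spots ranged from -5.24 to -4.74 in #620-2 and from -3.49 to -3.20 in #620-6. In #757-2 they reached from -6.35 to -4.78 and so ran into the range of #620-2. Spots of 1 array are not replicates of a line.

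**Figure D2:**
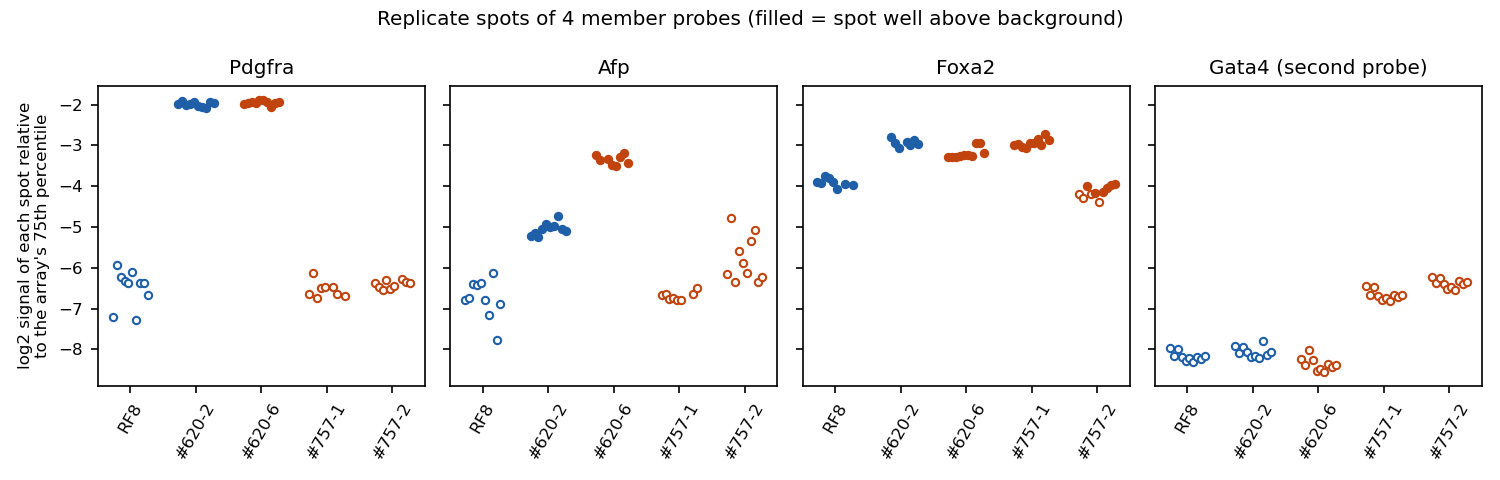
Each unmarked spot of the 4 member probes printed 10 times per array, as log2 signal relative to the 75th percentile of the array, by line, with wild-type lines in blue, ECAT11EGFP/EGFP lines in orange and spots well above background filled. The Gata4 panel is its second, undetected probe. The Pdgfra spots of the #620 lines lie between -2.08 and -1.88, apart from all others.

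The comparison of genotypes asks whether ESCs without ECAT11 differ in these endoderm markers. No member was called. In the limma fit, a call asked for more than 2-fold and for 0.05 at most as adjusted p. Of the 12 member probes 0 met it, and of the 28972 probes 0.00345% did. At an unadjusted p under 0.05, 1 of the 12 passed, against 7.61% of all probes. The methods' t-test called none of the 9 brightest probes either. That 1 probe was Dab2, whose mean was -2.16 ± 0.028 (SD, n = 3) in ECAT11EGFP/EGFP and -1.64 ± 0.22 (SD, n = 2) in wild type. The limma difference was -0.51 ± 0.17 (SE, adjusted p = 0.588), which is less than 2-fold.

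Groups were counted as apart only where every line of the higher group was well above background and lay above the other values, with undetected lines set to the limit of detection of their array. The genotype groups were apart for 1 of the 9 brightest probes, that of Dab2, against 17.7% of all probes. Gata4 differed by -0.39 ± 0.24 (SE, limma adjusted p = 0.824), and its 2 lowest values were those of the second slide, below the limit of detection there. Over the 4 members detected in all lines, Gata6, Sox7, Foxa2 and Dab2, the median difference was -0.26, against -0.0028 over the 20617 probes detected in all lines. Leaving out each line in turn, the Gata6 difference of -0.95 ran from -1.81 to -0.09. The arrays leave wide room for a difference in most genes. For Pdgfra the 95% interval of the limma difference ran from -6.17 to 4.72, for Sox7 from -2.09 to 4.52 and for Gata6 from -2.79 to 0.88. The interval was narrower for Dab2, from -0.95 to -0.08, and for Gata4, from -1.02 to 0.24.

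The #620 lines, labelled female, were then compared with the 3 lines labelled male, with genotype as a second term. For 4 of the 9 brightest member probes, those of Pdgfra, Sox7, Sox17 and Gata6, both #620 lines lay above all 3 others by the rule above, as did 14.9% of all probes. The Pdgfra probe passed the filter on dim probes through the #620 lines alone. Members were also chosen with earlier results of these data known, so nothing is read from this share. The median difference over the 4 members detected in all lines was 1.05, against -0.04 over all probes detected in all lines. After adjustment over all probes 0 of the 12 member probes were called with limma, and the percentage of all 28971 tested probes called higher by the same rule was also 0. At an unadjusted p under 0.05 and a 2-fold change, 7 of the 12 were higher, against 5.15% of all probes. These 7 were the probes of Pdgfra (1 of 2), Sox17 and Sox7 (2 each), Gata6 and Afp. Of the 7, 3 were well above background in the #620 lines only (the probes of Pdgfra and Afp and the second of Sox7) and so passed the filter on dim probes through these lines alone, so nothing is read from this count.

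Pdgfra missed the threshold, with a difference of 4.51 ± 0.13 (SE, limma adjusted p = 0.0534). Its values in the lines labelled male lay below the limit of detection, so nothing is read from this SE or p. As a bound, the #620 lines were at least 7.67-fold higher, since the limit of detection on the second slide enters it. The difference was 2.59 ± 0.47 for Sox7 (SE, limma adjusted p = 0.109) and 2.11 ± 0.16 for Sox17 (SE, limma adjusted p = 0.0736). Gata6 differed by 1.48 ± 0.17 (SE, limma adjusted p = 0.0820) and Afp by 2.38 ± 0.45 (SE, limma adjusted p = 0.114). The Sox17 values of the #757 lines and the Afp values of all lines labelled male were below the limit of detection, and the bound for Afp was at least 1.63-fold. Pdgfra and Sox7 passed the threshold with another background correction, and Pdgfra and Sox17 did without the genotype term, so the call depends on the fit. Undetected values of Pdgfra and Sox17 enter these fits too, so nothing is read from the passing of these genes. With that background correction the differences of Sox17 and Gata6 were 0.84 and 0.94, and that of Afp was 0.58. In the deposited table that of Afp was 1.32.

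The other 4 genes differed less or with more scatter. Hnf4a differed by 1.47 ± 0.60 (SE, limma adjusted p = 0.272), and by 0.25 with the other background correction. No line labelled male was above the limit of detection, and the bound was at least 1.09-fold. Against the #757 lines the bound for #620-6 was 0.91-fold, so they give Hnf4a no order. Foxa2 differed by 0.61 ± 0.46 (SE, limma adjusted p = 0.492). For Gata4 the difference was 0.19, with a 95% interval from -0.47 to 0.86, and for Dab2 it was 0.11, with an interval from -0.33 to 0.54. Gata4 turned negative with another background correction and within the first slide, and Dab2 within the first slide.

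**Figure D3:**
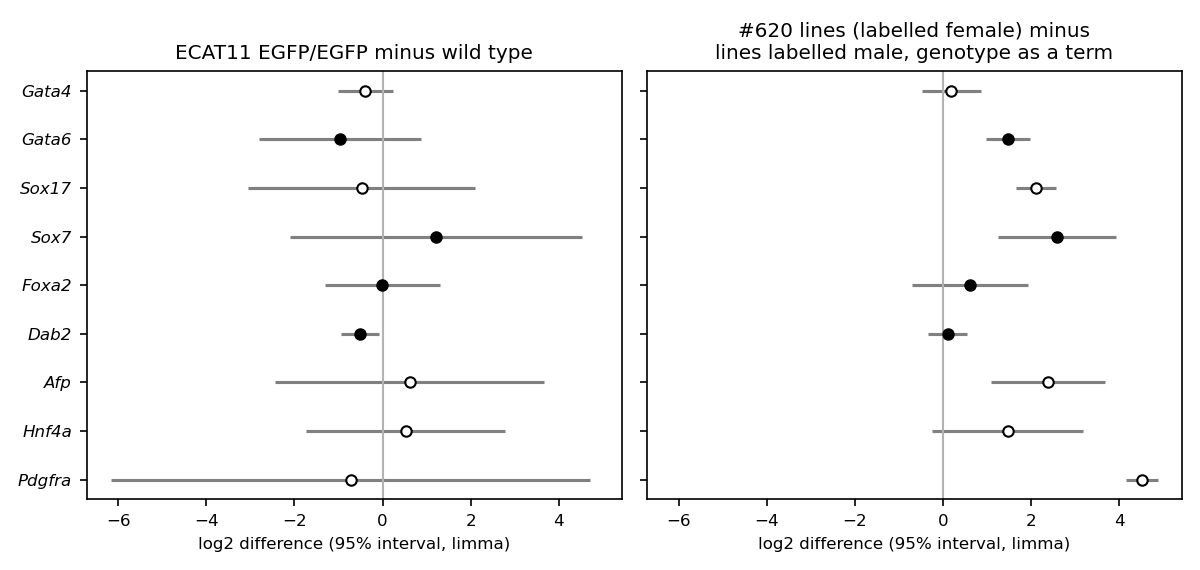
Log2 difference of the brightest kept probe of 9 genes, with the 95% interval from limma, for ECAT11EGFP/EGFP minus wild type on the left and for the #620 lines minus the lines labelled male on the right. Filled points are the 4 genes well above background in all 5 lines, and the values of the open ones include lines below the limit of detection. On the right the filled points lie from 0.11 for Dab2 to 2.59 for Sox7, while on the left 8 of the 9 intervals include 0.

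Within each genotype the #620 line could be set against its counterparts. The wild-type pair lies within 1 slide but differs in strain and derivation as well as in sex label. The ECAT11EGFP/EGFP lines run across slides. Gata6 was 1.72 higher in #620-2 than in RF8 and 1.30 higher in #620-6 than in the mean of the #757 lines. Sox17 was 2.35 higher in #620-2 than in RF8, and at least 2.58-fold higher in #620-6 than in the #757 lines, where it was not detected. For Pdgfra the bounds were at least 16.1-fold within wild type and at least 5.33-fold within ECAT11EGFP/EGFP. For Afp they were at least 1.94-fold and, with marked spots left out, at least 2.01-fold. In the deposited table Afp was higher in #757-1 than in #620-6, so no order is read from the second bound. Sox7 had 3.53 within wild type and 1.89 within ECAT11EGFP/EGFP, a difference of -1.64. In the limma test of such differences only #757-1 and #757-2 share both genotype and sex label. The spread between lines therefore comes from these lines alone, and nothing is read from the p-values of that test. The genotype effect was called different between the sex labels for 0 of the 12 member probes with limma, of which 2, Sox7 and the second Pdgfra probe, had an unadjusted p under 0.05 (0.0357 and 0.0469). Of all 28915 probes in that test 0 were called and 10.6% had an unadjusted p under 0.05, and the second Pdgfra probe was detected in #620-2 only. With 1 array per line, fewer cells of a type and less RNA per cell cannot be told apart.

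Further markers did not all follow the members. Of 30 kept genes of primitive and visceral endoderm, both #620 lines lay above the other lines for 7 and below them for 5, against 14.9% and 16.7% of all probes, and the median difference was -0.09 over the 26 detected in all lines. Srgn, the core protein of serglycin, differed by 2.80 ± 0.27 (SE, limma adjusted p = 0.0781) and Cubn, the endocytic receptor cubilin of visceral endoderm, by 1.77 ± 0.25 (SE, limma adjusted p = 0.0902). The Cubn value of #757-2 was below the limit of detection. The growth factor receptor Fgfr2 differed by -0.44 and thrombomodulin, Thbd, by -0.60. Among basement membrane genes, Nid1 differed by 1.11, Col4a2 by 0.43, Lamc1 by 0.37 and Lama1 by 0.13. Col4a1 differed by -0.09 and Lamb1 by -0.50. Apoa1, Apob and Ihh were well above background in no line.

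Among 19 kept genes of definitive endoderm and gut, 3 lay higher and 6 lower in both #620 lines. These were 15.8% and 31.6% of the list, against 14.9% and 16.7% of all probes. The median difference was -0.85 over the 13 detected in all lines. Sox9, a SOX factor of gut progenitors that is also made in cartilage and other tissues, differed by 3.73 ± 0.32 (SE, limma adjusted p = 0.0760). The Sox9 values of the #757 lines were below the limit of detection, so this difference and SE rest partly on undetected values. In contrast, Foxa3, a relative of Foxa2, differed by -2.13 ± 0.18 (SE, limma adjusted p = 0.0760) and Trh, thyrotropin-releasing hormone, by -2.11 ± 0.22 (SE, limma adjusted p = 0.0781). The protease Tmprss2 was high in #757-2 alone, at -2.38, with -5.48 to -4.87 elsewhere. Cer1, Mixl1, Foxa1, Alb, Pdx1, Shh and Frzb were well above background in no line. No gene of these lists was called in either comparison.

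Pdgfra is also a gene of fibroblasts, and a list of fibroblast markers was set beside it. Of 16 such genes, all kept, 7 lay above and 2 below in both #620 lines, against the 14.9% and 16.7% of all probes. The median difference was 0.91 over the 13 detected in all lines, of which 8 were above 0. The summed signal of the 16, which adds the levels of different probes, in units of the 75th percentile, was 106 in #620-2 and 112 in #620-6, against 50.0 in RF8, 31.9 in #757-1 and 39.2 in #757-2. Without S100a4 the sums were 57.3 and 60.4 in the #620 lines, against 49.0, 31.6 and 38.8. No marker of the list was below background in all lines, and 13 to 16 of the 16 were well above it in each line. S100a4, a calcium-binding protein of fibroblasts and other motile cells, read -0.07 in RF8, 5.61 in #620-2, 5.70 in #620-6, -1.67 in #757-1 and -1.41 in #757-2. Prrx1, a homeobox factor of mesenchyme, read -5.51, -2.16, -2.07, -6.27 and -6.23, and Lum, a proteoglycan of connective tissue, -8.06, -3.25, -5.38, -6.76 and -5.49. Prrx1 was not detected in the #757 lines, and Lum was detected in the #620 lines only. The Lum value of #620-6 lay below the limits of detection of the #757 lines, so these give it no order. Besides S100a4 and Prrx1, other genes of the list lay above in both #620 lines: Dcn differed by 2.53, Col3a1 by 2.48, Thy1 by 1.61, Twist1 by 0.97 and Vim by 0.96. In contrast, the collagen gene Col1a1 differed by -0.94 and was highest in RF8, at 2.97. Postn differed by -0.39, Fn1 by -0.19 and Acta2 by -0.13. Pdgfrb, the second receptor of the family, read -1.48 in RF8, -1.94 in #620-2, -3.07 in #620-6, -5.66 in #757-1 and -3.99 in #757-2, a difference of 0.80. It was not detected in #757-1. The part of such cells in the values of Pdgfra, Sox7, Sox17, Gata6 and Afp was not tested.

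**Figure D4:**
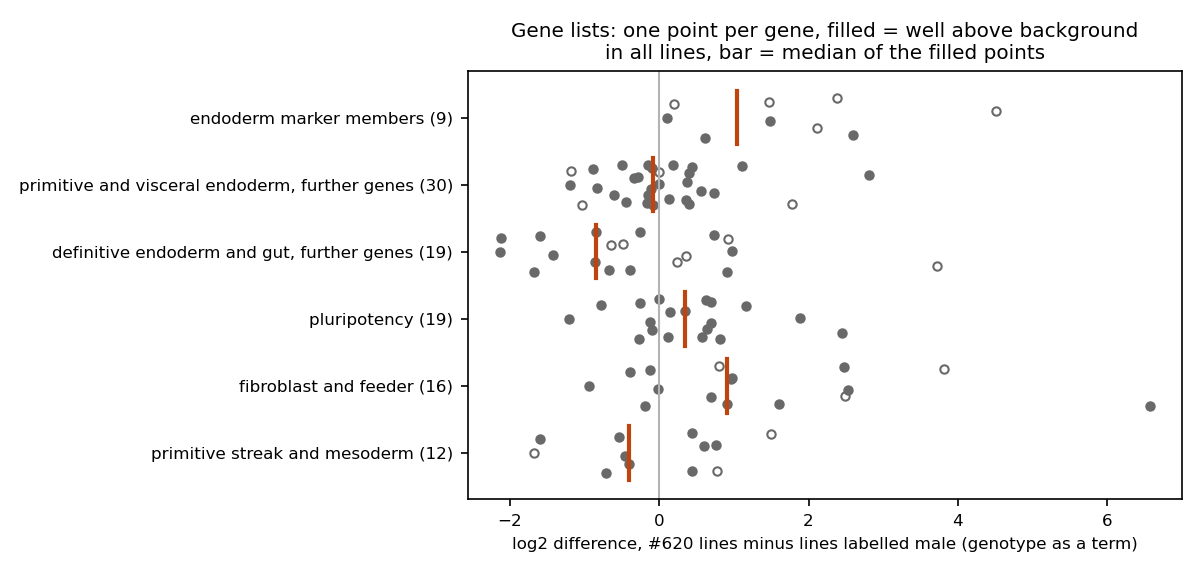
Log2 difference of the #620 lines minus the lines labelled male for each kept gene of 6 lists (number of genes in brackets), with genes well above background in all 5 lines as filled points and their median as a bar. The filled members have a median of 1.05 and the fibroblast genes 0.91, while the further genes of primitive and visceral endoderm have -0.09.

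The profiles most like that of Sox7, the member detected in all lines with the widest range, were looked for among 20617 probes well above background in all 5 lines. Likeness was the root mean square difference of profiles centred over the 5 lines, in log2 units, with a median of 1.48 over all probes. The nearest were Mapt (0.33), Mylpf (0.39), Tmprss12 (0.40), Tbx3 (0.42) and Sh3tc2 (0.43). Of these, Mapt, which encodes the microtubule protein tau, read -4.23 in RF8, -1.10 in #620-2, 0.21 in #620-6, -2.78 in #757-1 and -2.17 in #757-2. With 5 lines this is a description only.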

How the data were processed

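Cy3-labelled RNA of 5 ESC lines was read on 5 Agilent arrays. Per the file headers the scans were extracted in Feature Extraction 9.5.3.1. For 45018 spots the authors deposited the mean intensity, the local background intensity and the background-corrected intensity, not normalized between arrays. They also deposited a table of log2 values made in GeneSpring GX. Between arrays its differences had a slope of 1.00 against those computed here, with a Pearson r of 0.99996 across 20617 probes detected in all lines. Levels there were thus shifted nearly by a constant. This did not hold for Afp, and Foxa2 and Pdgfra also departed from it. The genotype difference of Foxa2 was -0.065 in the deposited table against -0.0019 here. The difference of Pdgfra between the sex labels was 4.39 against 4.51. The column medians of the deposited table were -0.02 in RF8, 0 in #620-2, -0.10 in #620-6, 0.06 in #757-1 and 0.08 in #757-2. The table served as an alternative.

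The 1639 control spots were left out and 0.335% of the rest, marked non-uniform or population outlier, became missing values. Intensities were scaled to the array's 75th percentile, which lay between 692 and 797. The log2 was taken and spots of 1 probe were averaged. No spot was saturated. The filter asked for a Present flag on 1 array or more. The fits were made in limma 3.58.1 (R 4.3.3), using Benjamini-Hochberg adjustment over all kept probes. The brightest probe, by its mean over the lines, stands for a gene. All members are named, and from each further list the 4 genes with the widest range over lines among those detected in at least 1 line, with Pou5f1, Nanog and Sox2. Other genes of the lists were chosen after their values were seen. These were Nid1, Col4a2, Lamc1, Lama1, Col4a1, Lamb1, Col1a1, Postn, Fn1, Acta2, Dcn, Col3a1, Thy1, Twist1 and Vim. Those given as not detected or in the closing section were chosen so too. Members and lists were chosen with earlier results of these data known. Replicate numbers come from the order of the samples and pair nothing.

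On simulated data, 5 sets of 28898 probes of which 200 were changed, the fits were tested. For the genotypes, 63.1% of 16-fold and 29.8% of 4-fold changes were recovered, and 0.408% of 2-fold ones. For the sex label these were 62.0%, 25.3% and 0%. Unchanged probes called were 4 and 3 per set. The alternatives were 15 for the genotypes and 13 for the sex label: other background correction (normexp, offset 50), normalization, filters, terms, tests and the omission of each line. Figures were drawn with matplotlib 3.10.9.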

Additional observations from a re-analysis of the deposited data

How the results depend on the processing

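No member was called between genotypes under any of the 15 alternatives (14 for Afp, Hnf4a and Pdgfra, which the stricter filter left out). The number of probes called on the whole array was 1, and became 0 with normexp, quantile normalization, no filter, a slide block, a term for sex label or the methods' t-test, and 3 with the stricter filter. It was 0 in each fit that left out a line, with 838 to 1563 probes at an unadjusted p under 0.05 and over 2-fold. The genotype difference turned for Foxa2 (-0.0019) to 0.076 with normexp, 0.055 with quantile normalization, 0.23 with a slide block and 0.10 with a term for sex label. For Gata4 it turned to 0.0030 with normexp, for Sox17 to 0.82 with the slide, and for Pdgfra to 2.29 with the slide and 0.027 with the sex label. Leaving out each line in turn, it ran from -0.55 to 2.98 for Sox7, from -0.34 to 1.47 for Afp, from -0.30 to 1.36 for Hnf4a, from -1.65 to 0.70 for Sox17, from -0.49 to 0.48 for Foxa2, from -2.97 to 1.53 for Pdgfra, from -1.81 to -0.09 for Gata6 and from -0.53 to -0.22 for Gata4. For Afp (0.62) it was 1.98 in the deposited table and 0.83 with marked spots kept. The cause was not tested.

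Between the sex labels 0 probes were called, but 64 (59 higher in the #620 lines) with quantile normalization, 452 (301 higher) with normexp and 103 (82 higher) without the genotype term. It was 0 with each line left out, where 2402 to 3538 probes had an unadjusted p under 0.05 and over 2-fold. With normexp, Sox7 (1.56, limma adjusted p = 0.0372) and Pdgfra (1.82, limma adjusted p = 0.0133) were called, at smaller differences. Afp (0.58), Hnf4a (0.25), Sox17 (0.84) and Gata6 (0.94) were smaller there as well. Without the genotype term, Sox17 (2.13, limma adjusted p = 0.0361) and Pdgfra (4.51, limma adjusted p = 0.00997) were. Undetected values of Pdgfra and Sox17 enter these fits, so nothing is read from the calls of these genes. Over the 13 alternatives Pdgfra had adjusted p from 0.00997 to 0.270 and a difference from 1.82 to 4.84. The slide as a block, the 3 arrays of the first slide alone, marked spots kept and the deposited table were chosen for this comparison after seeing the data. In the last, Afp differed by 1.32 rather than 2.38. Gata4 (0.19) turned to -0.13 with normexp, -0.13 with the slide and -0.15 on the first slide, and Dab2 (0.11) to -0.039 on the first slide. Leaving out each line, the difference ran from -0.13 to 0.44 for Gata4 and from -0.048 to 0.31 for Dab2, and kept its sign for the other 7 genes. Without a filter the median of all probes was 0.11 between genotypes and -0.19 between sex labels, so values there are relative to that shift. No paired analysis was possible because the labels give no replicate numbers. The limit of detection, higher on the second slide, bounds what can be said of dim genes in the #757 lines.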

Other observations

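Several pluripotency genes were also higher in the #620 lines. Of 19 kept genes of the list, both #620 lines lay above the other lines for 8 and below for 0, against 14.9% and 16.7% of all probes, and the median difference was 0.35 against -0.04 over all probes detected in all lines. Tbx3, a T-box factor of ESC self-renewal that is also expressed in primitive endoderm, read 1.18 in RF8, 4.44 in #620-2, 4.42 in #620-6, 2.26 in #757-1 and 2.93 in #757-2, and differed by 2.44 ± 0.45 (SE, limma adjusted p = 0.111). Klf4 differed by 1.88 ± 0.41 (SE, limma adjusted p = 0.130) and Nanog by 1.16 ± 0.19 (SE, limma adjusted p = 0.0995). Dppa3 differed by -1.21 ± 0.15 (SE, limma adjusted p = 0.0865). Zfp42 split the lines another way. It was high in RF8 (7.0), #620-2 (6.79) and #757-1 (6.55), and lower in #620-6 (4.0) and #757-2 (3.87). Pou5f1 and Sox2 differed by 0.35 and 0.12.

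Genes of primitive streak and mesoderm had a median difference of -0.40 over the 9 detected in all lines. Of 12 kept genes 0 were higher and 2 lower in both #620 lines, Wnt3 (-1.59) and Fgf8 (-0.71). Those lower made up 16.7% of the list, the same share as of all probes, and 14.9% of all probes were higher. Meox1, a homeobox factor of somites, read -4.94 in #620-2, -3.50 in #620-6 and -5.11 in RF8 and was not detected in the #757 lines. T, the T-box factor of the streak, read -4.01 in RF8, -4.92 in #620-2, -6.40 in #620-6, -4.76 in #757-1 and -3.52 in #757-2 and was detected in 3 of the 5. Kdr and Hand1 were highest in #620-6, at -1.34 and -1.55. No gene of these lists was called.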
